A study of Mus musculus with 12 samples.

Results

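The muscle acetylcholine receptor and the proteins that cluster it under the nerve terminal were followed in differentiating C2C12 cells treated with PFI-3. The set was 10 genes, taken from the tables by symbol: the receptor subunits Chrna1, Chrnb1, Chrnd, Chrng and Chrne, and the organisers Agrn, Lrp4, Musk, Dok7 and Rapsn. All 10 were among the 16288 genes listed in at least 1 table. Of the 10, 9 passed the filter on low counts that left 12545 genes for testing, and Chrne did not.

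C2C12 is an immortalised mouse myoblast line that leaves the cell cycle and fuses into myotubes when serum is reduced. PFI-3 is a small molecule that binds the bromodomains of BRG1 and BRM, the ATPases of the SWI/SNF chromatin remodelling complexes, and the study asked what these domains do in muscle differentiation. The labels name no nerve cells in the cultures. The 6 groups were proliferating cells in growth medium (GM), cells 24 h after induction of differentiation (DM 24h) and cells 48 h after it (DM 48h), each with the solvent DMSO or with 50 uM PFI-3. Both treatments began 12 h before harvest in GM, and the differentiating cells had the same 12 h of pretreatment with renewal in the differentiation medium every 24 h. Each group had 2 libraries, A and B, described as biological duplicates, so the p-values measure the spread between these duplicates of 1 cell line.

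At the neuromuscular junction the motor nerve releases acetylcholine onto a pentameric channel made of alpha, beta, delta and either gamma or epsilon subunits. The gamma subunit marks the fetal receptor of myotubes and denervated muscle, and the epsilon subunit replaces it in mature innervated fibres. Agrin binds LRP4, LRP4 activates the receptor kinase MuSK, DOK7 binds and activates MuSK from the inside of the cell, and rapsyn holds the receptors together in clusters. Subunit genes are textbook targets of the myogenic basic helix-loop-helix factors, which bind E-boxes, CANNTG.

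Upstream sequences are shown for the 4 subunit genes that had a window in the promoter set used. Of these, Chrna1, Chrnb1 and Chrng rose in differentiation and Chrne was barely listed. No window was at hand for Chrnd, Rapsn and Lrp4, so these members were not searched. Each run is the 250 bases before a transcript start, 5′ to 3′ on the gene's strand, from RefSeq on GRCm38.p6, with each CANNTG in capitals. The start used is not always the outermost one of the gene: the last 29 bases for Chrnb1, with its CANNTG match nearest the start, and the last 19 for Chrne lie inside the annotated gene. The windows are chr2:73580339-73580588 (minus strand) for Chrna1, chr11:69795938-69796187 (minus) for Chrnb1, chr1:87205561-87205810 (plus) for Chrng and chr11:70619195-70619444 (minus) for Chrne.
Chrna1: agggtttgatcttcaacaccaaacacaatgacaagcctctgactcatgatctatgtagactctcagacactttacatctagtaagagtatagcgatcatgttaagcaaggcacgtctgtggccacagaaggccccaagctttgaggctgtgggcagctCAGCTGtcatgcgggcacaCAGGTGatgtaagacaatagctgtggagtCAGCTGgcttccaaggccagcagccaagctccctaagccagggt
Chrnb1: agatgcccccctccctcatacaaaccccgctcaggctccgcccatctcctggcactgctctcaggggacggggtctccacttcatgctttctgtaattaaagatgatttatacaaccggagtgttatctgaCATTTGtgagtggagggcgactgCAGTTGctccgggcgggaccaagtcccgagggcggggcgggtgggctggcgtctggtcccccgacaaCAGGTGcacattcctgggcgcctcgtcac
Chrng: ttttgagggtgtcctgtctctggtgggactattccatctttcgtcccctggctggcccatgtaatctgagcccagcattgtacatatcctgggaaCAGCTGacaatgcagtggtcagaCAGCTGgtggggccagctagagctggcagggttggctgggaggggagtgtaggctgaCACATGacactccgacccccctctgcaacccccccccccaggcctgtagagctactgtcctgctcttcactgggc
Chrne: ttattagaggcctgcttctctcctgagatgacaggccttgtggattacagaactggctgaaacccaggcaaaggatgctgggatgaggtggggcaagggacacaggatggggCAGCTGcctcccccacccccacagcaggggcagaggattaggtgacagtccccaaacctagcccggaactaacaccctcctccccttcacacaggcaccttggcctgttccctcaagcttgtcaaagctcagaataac

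The windows of Chrna1, Chrnb1, Chrng and Musk each held 3 CANNTG matches, a number reached by 12.2% of 32851 promoter windows of this length. For Musk, 233 of the 250 bases lie inside the annotated gene, and all 3 matches are in that stretch. CANNTG reads the same class on both strands, and at least 1 match was in 66.2% of windows. CAGCTG, one form of it, occurred 2 times in Chrna1, at -92 and -44 from the start, and 2 times in Chrng, at -155 and -132, against 1.3% of windows with at least 2. Chrne had 1 CAGCTG at -138 and 1 CCGGAA, the core of the N-box that ETS factors bind at synaptic genes, at -76, and CCGGAA was in 12.0% of windows. TATAAA, searched on both strands, was found in Chrnb1, as TTTATA at -144, and in 12.4% of windows. The windows before the first annotated start of Agrn and the second of Dok7 held none of the 4 letter patterns. Those before the second start of Agrn and the first of Dok7 held 1 CANNTG each. Of the 250 bases in these last windows, 250 for Agrn and 195 for Dok7 lie inside the annotated gene. These are matches of letters, and binding was not measured.

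The libraries were alike in depth, with 12576374 to 13658352 expected counts over 13499 to 14231 listed genes. The cells carried the muscle markers: the summed FPKM (fragments scaled to transcript length and library size, the level deposited by the authors) of Myod1, Myf5, Des, Myog, Myh3 and Acta1 ran from 187.62 to 7186.90 across libraries. Summed FPKM was at most 0.61 for 8 motor neuron markers, with Chat, Slc18a3 and Snap25 in no library, 0.89 for 4 Schwann cell markers, 0.36 for 3 adipocyte markers and 0.72 for 3 osteoblast markers. The duplicates lay further apart in GM, with an SD of log2(B/A) over 10656 genes of 0.333 with DMSO and 0.301 with PFI-3, than in DM, with 0.138 to 0.151. Since all 6 groups shared 1 estimate of spread per gene, a gene with discordant GM duplicates was tested against a wide spread at every stage.

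In DMSO the junction genes rose as the myoblasts differentiated. Of the 9 tested, 8 were called higher (adjusted p under 0.05) at DM 24h than in GM, where 30.6% of all genes were called higher, and the median member change was 1.90 on the log2 scale against 0.02 for all genes. The same 8 genes, Chrna1, Chrnb1, Chrnd, Chrng, Musk, Rapsn, Dok7 and Lrp4, were called higher again from DM 24h to DM 48h, where 24.2% of genes were, with a median of 0.76. Agrn stood apart with 0.26 ± 0.16 (SE) and then 0.07 ± 0.15, and neither change was called, although the first was without DMSO A of GM (0.53, 0.00704). The second step of Chrnd lost its call without DMSO B of DM 24h (0.0572), with DESeq2 (0.118) and with limma on log2(FPKM + 0.1) (0.121). Chrng made the widest step of the 9, by 7.28 ± 0.16 to 24 h, from 6 and 16 counts in the GM libraries, so its GM level rests on few reads. Leaving out each library in turn gave steps of 6.79 to 8.10. Lrp4 rose mostly in the first day, by 1.90 ± 0.10, and by 0.25 ± 0.09 after it (adjusted p = 0.0353), a call lost on leaving out any of the 4 libraries compared (0.0641 to 0.179) and with limma on FPKM (0.15 and 0.176).

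With PFI-3 the same genes rose over the same intervals, from lower starting levels for several of them. From GM to DM 24h, 8 of 9 members were called higher (32.1% of all genes), and from DM 24h to DM 48h again 8 of 9 (13.1% of all genes). In the second interval Chrna1 rose by 1.43 ± 0.06 with PFI-3 and by 0.82 ± 0.06 with DMSO, and Dok7 by 1.30 ± 0.09 and 0.56 ± 0.09. Agrn was again not called in either interval, with 0.23 ± 0.15 and 0.06 ± 0.15, although the first was without PFI-3 A of GM (0.47, 0.0182). The second step of Musk lost its call without PFI-3 A of DM 48h (0.0538) or PFI-3 B of DM 24h (0.0697) and with limma on FPKM (0.0558 and 0.0843), and that of Chrnd with limma on log2(FPKM + 0.1) (0.0638).

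**Figure D1:**
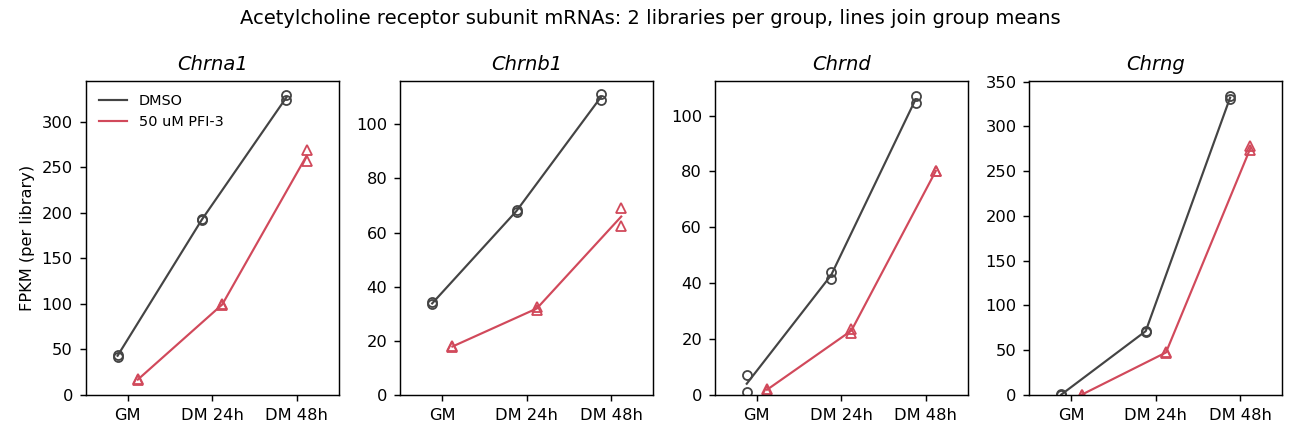
FPKM (vertical axis, from 0, 1 scale per gene) of the 4 measured receptor subunits at the 3 stages, with grey circles for DMSO libraries, red triangles for 50 uM PFI-3 libraries and lines through the group means of 2 libraries. For Chrna1 and Chrnb1 both PFI-3 points lie below both DMSO points at every stage, while the GM points of Chrnd in DMSO are 0.95 and 7.07.

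Among the subunits, Chrna1, which encodes the alpha subunit that carries the acetylcholine binding site, fell with PFI-3 at every stage. Its FPKM in GM was 41.94 and 44.07 with DMSO and 16.27 and 17.42 with PFI-3. At DM 24h it was 192.07 and 193.45 against 98.69 and 99.92, and at DM 48h 329.15 and 324.42 against 256.45 and 268.96. The groups did not overlap at any stage, and the PFI-3 level in CPM (counts scaled to library size) was 36.6%, 49.8% and 75.7% of DMSO in turn. The log2 fold changes were -1.45 ± 0.06 (adjusted p = 3.27e-07), -1.0 ± 0.06 (5.61e-07) and -0.40 ± 0.06 (0.000298). The gap narrowed with stage, but exposure to PFI-3 also lengthened with stage, so the part of each cannot be told apart. The effect at DM 48h was 0.60 ± 0.08 above that at DM 24h (adjusted p = 0.000514), and the effect at DM 24h was 0.45 ± 0.08 above that in GM (0.0165). Over all genes, 12.1% were called for the former difference and 3.37% for the latter. The latter lost its call when any of the 4 DM 24h libraries was left out (0.0784 to 0.0957). Chrna1 (NCBI gene 11435, chr2:73563281-73580338) had fractional expected counts in all 12 libraries, so part of its reads was shared out by the authors' counting.

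Chrnb1 (11443, chr11:69784036-69795966), the beta subunit through which rapsyn is known to contact the receptor, was lower with PFI-3 by a similar factor throughout. In GM its FPKM was 34.15 and 33.45 with DMSO and 18.09 and 17.64 with PFI-3. At DM 24h the values were 68.25 and 67.73 against 32.57 and 31.29, and at DM 48h 111.28 and 108.83 against 62.58 and 69.20. PFI-3 levels were thus below DMSO levels in every library, at 49.3%, 45.4% and 56.3% of the DMSO CPM. The changes were -1.02 ± 0.07 (adjusted p = 1.17e-05), -1.14 ± 0.07 (9.38e-07) and -0.83 ± 0.07 (4.44e-06). Their differences between stages were -0.12 ± 0.10 (adjusted p = 0.609) from GM to DM 24h and 0.31 ± 0.10 (0.0575) from DM 24h to DM 48h. The second was called on leaving out any 1 GM library (0.0234 to 0.0441), in a range of 0.000301 to 0.218 over all alternatives.

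Chrng (11449, chr1:87205811-87211835), the fetal gamma subunit, was barely present in GM, at 0.24 and 0.63 FPKM with DMSO and 0.16 and 0.24 with PFI-3. At DM 24h it stood at 71.82 and 70.75 FPKM with DMSO and 46.32 and 48.49 with PFI-3, and at DM 48h at 334.03 and 330.38 against 278.13 and 273.14. Both differentiation stages were lower with PFI-3 in both libraries, by -0.64 ± 0.09 (adjusted p = 0.000322) and -0.36 ± 0.08 (0.00669). The DM 48h call was lost without DMSO A (0.0555), PFI-3 A (0.0506) or PFI-3 B (0.066) of that stage. In GM the difference was -1.19 ± 0.43 (adjusted p = 0.108) on 4 to 16 counts a library, and it was called without DMSO A of GM (-1.69, 0.0359).

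Chrnd (11447, chr1:87190597-87200070), the delta subunit, had the most discordant duplicates: 38 and 283 counts in the GM libraries with DMSO, or 0.95 and 7.07 FPKM, against 1.49 and 2.20 FPKM with PFI-3. At DM 24h its FPKM was 44.13 and 41.63 with DMSO and 23.71 and 22.33 with PFI-3, and at DM 48h 107.06 and 104.50 against 80.19 and 80.18. The groups overlapped in GM and did not overlap in DM. The changes were -1.20 ± 0.57 (adjusted p = 0.189), -0.95 ± 0.36 (0.0754) and -0.49 ± 0.34 (0.319), none of them called. Fitted on the 4 libraries of the stage alone, DM 24h gave -0.94 with an adjusted p of 2.26e-18 and DM 48h -0.48 with 4.67e-09. Over all alternatives the adjusted p ran from 7.66e-60 to 0.399 at DM 24h and from 1.26e-28 to 0.718 at DM 48h. DM 24h was called without any 1 of the GM libraries (1.53e-06 to 0.0494), and DM 48h without DMSO A (0.000158) or DMSO B (0.000169) of GM. In GM itself the direction rested on 1 library, with -1.99 (5.66e-06) without DMSO A and 0.82 (0.0296) without DMSO B.

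Chrne (11448, chr11:70614883-70619213), the adult epsilon subunit, was listed in 2 of 12 libraries, both DMSO at DM 48h, with 10 and 3 counts, where Chrng had 791 and 2599 times as many. The other 10 libraries were at 0, and no comparison between treatments can be read from these counts. Chrng, not Chrne, thus made up nearly all of the gamma or epsilon subunit mRNA listed in the differentiated libraries of both treatments.

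**Figure D2:**
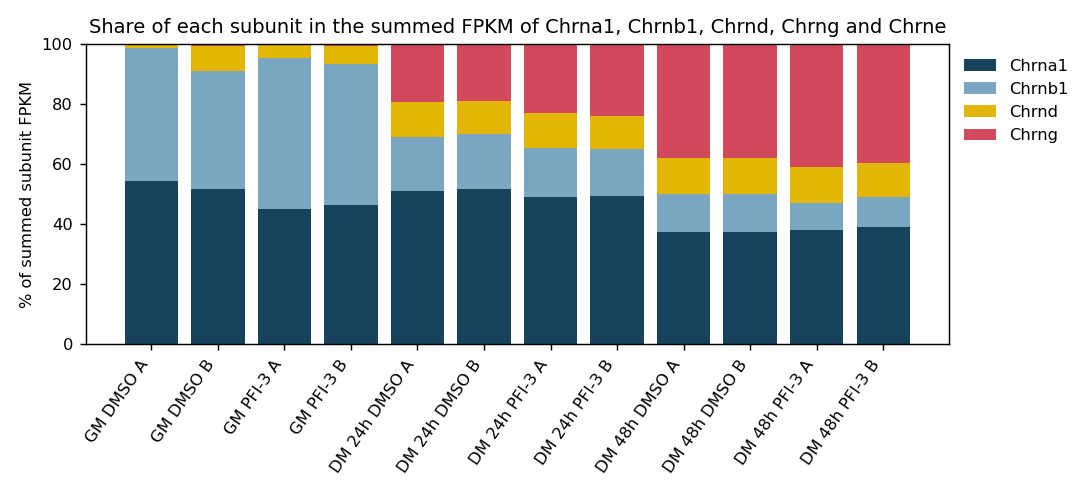
Share (%) of each subunit in the summed subunit FPKM of each of the 12 libraries. Chrng makes 0.311 to 0.739% in GM, 18.9 to 24% at DM 24h and 37.9 to 41.1% at DM 48h, and Chrne is too low to be drawn.

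The make-up of the subunit pool moved with stage and, less, with treatment. Chrng was 19.1 and 18.9% of the summed subunit FPKM at DM 24h with DMSO and 23 and 24% with PFI-3, and 37.9 and 38% against 41.1 and 39.5% at DM 48h. Chrnb1 was 44.2 and 39.3% in GM with DMSO and 50.2 and 47% with PFI-3, the reverse of the order in DM. It was 18.1% in both DMSO libraries at DM 24h and 16.2 and 15.5% with PFI-3, and 12.6 and 12.5% against 9.24 and 10% at DM 48h. The ratio of Chrng to Chrnb1 FPKM was accordingly higher with PFI-3 in both DM stages, at 1.42 and 1.55 against 1.05 and 1.04, and at 4.44 and 3.95 against 3 and 3.04. These shares are descriptions with no test.

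In the signalling arm, Dok7 was the gene that fell. Dok7 (231134, chr5:35056571-35087839) read 4.66 and 5.28 FPKM in GM with DMSO and 2.83 and 3.72 with PFI-3. At DM 24h it read 30.62 and 32.38 against 15.63 in both PFI-3 libraries, and at DM 48h 43.86 and 43.95 against 38.48 and 36.96. Every PFI-3 library was below both DMSO libraries of its stage. The changes were -0.66 ± 0.12 (adjusted p = 0.00655), -1.03 ± 0.09 (1.14e-05) and -0.29 ± 0.09 (0.0246). The effect at DM 48h was 0.74 ± 0.13 above that at DM 24h (adjusted p = 0.00238), called in all 20 alternatives. The GM call was lost in the fit on its own 4 libraries (0.319, in a range of 0.000787 to 0.319), and the DM 48h call on leaving out any library of that stage (0.0845 to 0.145).

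Musk (18198, chr4:58285729-58377848), the kinase that Dok7 activates, showed no called change with PFI-3. Its FPKM was 3.86 and 6.58 against 5.29 and 5.18 with PFI-3 in GM, 17.00 and 18.63 against 20.03 and 18.46 at DM 24h, and 27.48 and 26.96 against 26.90 and 26.80 at DM 48h. The changes were -0.08 ± 0.15, 0.06 ± 0.12 and -0.08 ± 0.12 (adjusted p = 0.761, 0.766 and 0.669), and no alternative called one. The sign turned to 0.24 in GM without DMSO B and to -0.01 at DM 24h without DMSO A.

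Lrp4 (228357, chr2:91457456-91513901), the agrin receptor, had 4.16 and 4.79 FPKM in GM with DMSO against 5.13 and 6.15 with PFI-3. At DM 24h it had 16.66 and 17.17 against 18.64 and 17.43, and at DM 48h 19.81 and 18.64 against 24.91 and 23.43. FPKM did not overlap at any stage, but the CPM did at DM 24h, with 129 and 136 against 142 and 132. The changes were 0.25 ± 0.10 (adjusted p = 0.136), 0.05 ± 0.09 (0.748) and 0.25 ± 0.09 (0.0573). Fitted on the DM 48h libraries alone, with or without the letter as a block, the DM 48h change was called. Leaving out any 1 GM library called DM 48h (0.016 to 0.0277), leaving out PFI-3 A called GM (0.39, 0.0274), and the DM 24h value turned to -0.004 without PFI-3 A of that stage.

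Agrn (11603, chr4:156165290-156197533), the ligand gene, which muscle also transcribes in isoforms without clustering activity, lay higher with PFI-3 at about the same ratio in each stage. Its FPKM was 12.14 and 9.09 against 17.69 and 12.80 in GM, 13.35 and 13.18 against 17.81 and 17.85 at DM 24h, and 13.06 and 13.66 against 19.29 and 17.22 at DM 48h. FPKM did not overlap at any stage, but the CPM did in GM, with 94.7 and 67 against 125 and 90.8. By CPM the PFI-3 level was 133%, 130% and 129% of DMSO. Single stages were not called, with 0.42 ± 0.15 (adjusted p = 0.104), 0.38 ± 0.15 (0.0946) and 0.36 ± 0.15 (0.1). Fitted on the 4 libraries of the stage alone, DM 24h was called at 0.38 (adjusted p = 2.10e-08) and DM 48h at 0.37 (1.65e-05), and GM was not (0.43, 0.463). With the letter as a block in those fits all 3 were called (0.0175, 3.44e-12 and 7.68e-12). Without any 1 GM library both DM stages were called (0.0189 to 0.0346 and 0.0219 to 0.037), and GM was called without DMSO A (0.69, 0.00975) or PFI-3 B (0.63, 0.0178). Isoforms cannot be told apart in these gene totals.

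Rapsn (19400, chr2:91035472-91045729), the clustering scaffold, read 31.53 and 39.75 FPKM in GM with DMSO and 34.13 and 25.99 with PFI-3. At DM 24h it read 53.68 and 60.23 against 62.58 and 58.17, and at DM 48h 100.16 and 101.20 against 91.35 and 89.52. FPKM overlapped in GM and at DM 24h and not at DM 48h. The CPM did not overlap in GM, with 51.9 and 61.9 against 50.8 and 39. The changes were -0.34 ± 0.12 (adjusted p = 0.0877), 0.03 ± 0.11 (0.861) and -0.24 ± 0.11 (0.13). Fitted on the DM 48h libraries alone, with or without the letter as a block, the DM 48h change was called (lowest adjusted p = 2.01e-06). GM was called without DMSO A (-0.46, 0.0364) or PFI-3 A (-0.55, 0.0136), DM 48h without GM PFI-3 A (0.0432) or GM PFI-3 B (0.043), and the DM 24h value turned to -0.05 without DMSO A and -0.02 without PFI-3 A of that stage.

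**Figure D3:**
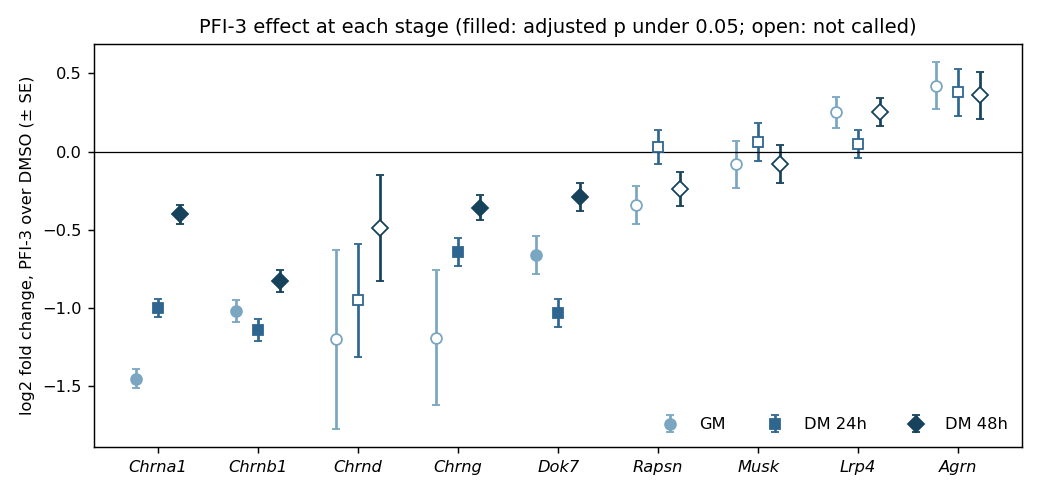
PFI-3 minus DMSO log2 fold change (± SE) of the 9 tested members in GM (circles), at DM 24h (squares) and at DM 48h (diamonds), filled where the adjusted p was under 0.05. The 11 filled points all lie below 0 and belong to Chrna1, Chrnb1, Chrng and Dok7, and the 3 Agrn values lie at 0.42, 0.38 and 0.36.

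Read as a set, 3 of 9 members were called lower with PFI-3 in GM, where 6.15% of all genes were. At DM 24h 4 of 9 were called lower (11.4% of all genes) and at DM 48h again 4 of 9 (14.0%), and none was called higher at any stage, against 5.46%, 12.2% and 13.4% of all genes. The median change of the 9 was -0.66, -0.64 and -0.29, beside -0.01, -0.00 and 0.00 over all genes. The CPM of the PFI-3 and DMSO libraries did not overlap for 6 members in GM, 6 again a day into differentiation and 9 on the second day, as for 45.4%, 70.5% and 71.3% of all genes. Averaged over the 3 stages in a model of stage and treatment, 5 were called lower (12.9% of all genes): Chrna1 -0.94 ± 0.13, Chrnb1 -0.99 ± 0.06, Chrng -0.52 ± 0.09, Dok7 -0.65 ± 0.11 and Chrnd -0.81 ± 0.27. The Chrnd average (adjusted p = 0.0429) was no longer called in 13 of 19 alternatives, among them leaving out any 1 library but the GM pair with DMSO (0.0572 to 0.0971). Agrn was called higher on average (0.39 ± 0.09, adjusted p = 0.00804), in all 19 alternatives, where 11.2% of genes were. Lrp4 (0.18 ± 0.06, adjusted p = 0.0541), Rapsn (-0.18 ± 0.08, 0.125) and Musk (-0.03 ± 0.08, 0.816) were not called, and Lrp4 was called without GM PFI-3 A (0.0318), DM 24h DMSO B (0.0495) or DM 24h PFI-3 B (0.0448).

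The order of the members by FPKM changed with stage. With DMSO in GM, Chrna1 led at 43 ± 1.51 (SD, n = 2), followed by Rapsn at 35.6 ± 5.81 and Chrnb1 at 33.8 ± 0.495, whose libraries overlapped. With PFI-3 in GM, Rapsn led at 30.1 ± 5.76, ahead of Chrnb1 at 17.9 ± 0.318 and Chrna1 at 16.8 ± 0.813, and the libraries of Chrna1 overlapped those of Agrn. At DM 48h Chrng and Chrna1 led in both treatments, at 332 ± 2.58 and 327 ± 3.34 with DMSO and 276 ± 3.53 and 263 ± 8.85 with PFI-3. Rapsn stood below Chrnb1 and Chrnd in that DMSO group and above both with PFI-3.

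Of the 6 muscle markers, Myf5 had a higher mean FPKM with PFI-3 at DM 24h, at 25.2 against 20.4 with DMSO. The others had lower means, as the subunits had, from 238 against 268 for Des to 22.9 against 69.1 for Myh3. Myog, the myogenic factor that turns on with differentiation, had 589.05 and 578.84 FPKM at DM 24h with DMSO and 295.68 and 287.19 with PFI-3, a change of -1.05 ± 0.08, and changed by -0.62 ± 0.07 at DM 48h, a call lost with limma on log2(FPKM + 0.1) (-0.53, adjusted p = 0.158). The summed FPKM of the 6 muscle markers was 1473.39 to 1484.60 with DMSO and 855.03 to 860.27 with PFI-3 at DM 24h, and 7049.60 to 7186.90 against 5351.93 to 5416.43 at DM 48h. In GM, where Chrna1 and Chrnb1 were already lower, Myog had 2 and 5 counts with DMSO and 6 and 12 with PFI-3, and Myod1 changed by -0.30 ± 0.13 (adjusted p = 0.15, and -0.57 with 0.00484 without PFI-3 B of GM). Fewer differentiated cells and less RNA per cell cannot be told apart in these bulk libraries, and the part of differentiation in the subunit changes was not tested.

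The wider junction pathway was read from 6 lists, each set beside all genes, of which 5.46% were called higher and 6.15% lower in GM, then 12.2% higher and 11.4% lower a day into differentiation, and 13.4% higher and 14.0% lower on the second day (medians of all genes -0.01, -0.00 and 0.00). Among 23 MuSK signalling partners, GM had 1 called higher (4.35%) and 4 lower (17.4%), DM 24h had 2 (8.7%) and 7 (30.4%), and DM 48h had 1 (4.35%) and 4 (17.4%), with medians of -0.05, -0.06 and -0.02. The DM 48h count of lower genes was near the share of all genes. Pak1, a kinase downstream of MuSK, was lower in GM by -0.77 ± 0.08, and Cdk5r1, the activator of Cdk5, at DM 24h by -0.61 ± 0.09. Dvl1, the dishevelled protein that binds MuSK, was lower at DM 48h by -0.61 ± 0.07. Pdzrn3, a ubiquitin ligase that binds MuSK, was higher in GM by 0.40 ± 0.07 and lower at DM 48h by -0.28 ± 0.06, the latter not called without DMSO A of that stage (0.0511). Cttn, which encodes cortactin, was higher at DM 24h by 0.36 ± 0.08 and at DM 48h by 0.25 ± 0.08. Fitted on the 4 GM libraries alone, Pak1 (0.105) and Pdzrn3 (0.239) were not called. The Cttn calls were lost at DM 24h without PFI-3 A or DMSO B, and at DM 48h without any DM library. The DM 48h call was also lost with size factors as in DESeq2 (adjusted p = 0.0554), no filter (0.0509) and DESeq2 (0.0661).

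Of 11 tested genes of the synaptic basal lamina and cholinesterase, 3 were called lower in GM (27.3%, against 6.15% of all genes), 4 lower (36.4%, against 11.4%) and 2 higher (18.2%, against 12.2%) at DM 24h, and 5 lower (45.5%, against 14.0%) and 3 higher (27.3%, against 13.4%) at DM 48h (medians -0.31, -0.28 and -0.38). Ache, the esterase that ends the acetylcholine signal, had 178 and 173 counts at DM 48h with DMSO and 84 and 75 with PFI-3, a change of -1.20 ± 0.23 (adjusted p = 0.0022). Its collagen tail gene Colq changed by 0.10 ± 0.27 there (adjusted p = 0.82). Dag1, the dystroglycan through which agrin also binds the cell, was lower by -0.88 ± 0.08 at DM 24h and -0.84 ± 0.08 at DM 48h. Lamb2, the synaptic laminin chain, was higher at DM 24h by 0.47 ± 0.08. Nid2, a basement membrane linker, went from -1.03 ± 0.08 in GM to -0.28 ± 0.07 at DM 24h and then 0.43 ± 0.07 at DM 48h, all called. The DM 24h call was lost without any library of that stage (0.0668 to 0.0981) and with limma on FPKM (0.0528 and 0.0638).

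Of 11 tested scaffold and channel genes, GM had 1 called higher and 1 lower (9.09% each, near the 5.46 and 6.15% of all genes). DM 24h had 3 (27.3%, against 12.2%) and 4 (36.4%, against 11.4%), and DM 48h had 2 (18.2%, against 13.4%) and 7 (63.6%, against 14.0%), with medians of 0.00, -0.25 and -0.69. Scn4a, the muscle sodium channel, was at 0 counts in all GM libraries, and was lower with PFI-3 by -1.72 ± 0.17 at DM 24h and -0.70 ± 0.10 at DM 48h. Sntb2, a syntrophin, was higher by 0.95 ± 0.09 and 0.56 ± 0.09, and Dtnb, a dystrobrevin, was higher at DM 48h by 0.60 ± 0.15, a call lost without DMSO A (0.0982) or PFI-3 B (0.0754) of that stage. Nos1, the synthase the syntrophins anchor, had 38 and 42 counts at DM 24h with DMSO and 71 and 77 with PFI-3, and 102 and 86 against 46 and 52 at DM 48h. It was thus higher with PFI-3 at DM 24h by 0.85 ± 0.21 (adjusted p = 0.0137) and lower at DM 48h by -1.0 ± 0.20 (0.00313), and the difference of these effects was -1.84 ± 0.29 (0.00156). The DM 24h call was lost with DESeq2 (0.11) and without any library of that stage (0.0572 to 0.0984). Plec was lower in GM by -0.36 ± 0.08, and lost its call without DMSO A (0.0503) or PFI-3 B (0.072). Fitted on the 4 GM libraries alone, Plec (0.345) was not called. Utrn, the junctional relative of dystrophin, changed by -0.35 ± 0.10 at DM 24h (adjusted p = 0.0216), lost without any library of that stage (0.0532 to 0.167).

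Of 13 tested genes that control synaptic transcription, 1 was called lower in GM (7.69%, near the 6.15% of all genes), and 6 lower (46.2%, against 11.4 and 14.0%) and 1 higher (7.69%, against 12.2 and 13.4%) at both DM stages (medians 0.09, -0.28 and -0.30). Erbb3, a neuregulin receptor, had 391 and 427 counts at DM 24h with DMSO and 192 and 187 with PFI-3, a change of -1.15 ± 0.18. With limma on log2(FPKM + 0.1) it was not called there (-1.08, adjusted p = 0.0971). It changed by -0.49 ± 0.15 at DM 48h (adjusted p = 0.025), a call lost with limma on log2(FPKM + 0.1) (-0.41, 0.512). That call was also lost without any library of that stage, and without DMSO A, PFI-3 A or PFI-3 B of DM 24h. Etv5, an ETS factor of synaptic nuclei, changed by -0.62 ± 0.14 at DM 24h (lost without DMSO B, 0.0746, or PFI-3 B, 0.0552) and by -0.75 ± 0.14 at DM 48h. Its relative Etv4 was lower in GM by -0.39 ± 0.10, lost without DMSO A (0.134), PFI-3 A (0.0729) or PFI-3 B (0.0549) of GM and without DMSO A (0.0532) or DMSO B (0.0541) of DM 24h. Fitted on the 4 GM libraries alone, Etv4 was not called (0.339, and 0.0577 with the letter as a block), nor with limma on FPKM (0.126 and 0.195). Hdac4 was higher at DM 24h by 0.41 ± 0.10, a call lost without DMSO A (0.27) or PFI-3 A (0.35) of that stage. Hdac9 was lower at DM 48h by -0.80 ± 0.27 (adjusted p = 0.0456), a call lost without any 1 DM library. It was also lost with DESeq2 (adjusted p = 0.202) and with limma on log2(FPKM + 0.1) (0.124).

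Of 7 tested genes of receptor assembly and glycosylation, GM had 1 called higher (14.3%, against 5.46%) and 2 lower (28.6%, against 6.15%), DM 24h had 1 each (14.3%, near the 12.2 and 11.4% of all genes), and edgeR called none at DM 48h. Gfpt1 (0.21 ± 0.06) and Dpagt1 (-0.31 ± 0.08) were the named genes in GM and Alg2 (0.27 ± 0.08) and Canx (-0.24 ± 0.06) at DM 24h. All 4 calls depended on the fit. Gfpt1 lost its call in every fit that left out 1 library except that without DMSO B of GM. Dpagt1, Alg2 and Canx lost theirs in several such fits. Gfpt1 was also not called with no filter (adjusted p = 0.0812) or DESeq2 (0.14), Dpagt1 with limma on FPKM (0.13 and 0.131) and Alg2 with DESeq2 (0.225). Of 11 other nicotinic subunits, 7 were in the tables and only Chrnb2 passed the filter. It had 9 and 4 counts at DM 24h with DMSO and 28 and 18 with PFI-3 (1.76 ± 0.57, adjusted p = 0.0413), a gene named after its values were seen.

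Across the 12 libraries the log2 CPM of Chrna1 ran closest to Itga7 (Pearson r = 0.992), Runx1 (0.991) and Cnn3 (0.991), and that of Lrp4 to Atp6v0a2 (0.995), Tril (0.992) and Itm2b (0.992), among 10367 genes. Within the set, Chrna1 and Dok7 had r = 0.987 and Chrna1 and Agrn 0.248. The points share stage, treatment and library, so these values describe the pattern and carry no p.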

How the data were processed

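RNA from 12 C2C12 cultures was sequenced, and 1 table per library was used. Its columns are the expected count and the FPKM per gene that the authors deposited, per the file headers. The submitters' processing notes name HISAT, StringTie, Cufflinks, Bowtie, RSEM and DESeq2 with build mm10, without their roles, and the strand used in counting is not given in the sources used here. Expected counts were rounded, and a gene missing from a table was taken as 0, since the 6963 cases listed in 1 duplicate only had a median count of 1 and 97.0% had at most 5. Depth was 12576374 to 13658352 counts per library. edgeR 4.0.16 (R 4.3.3; TMM scaling, filterByExpr, quasi-likelihood F-test, Benjamini-Hochberg adjustment over 12545 genes) was fitted to all 12 libraries as 6 groups. CPM is TMM-adjusted. The ± on a fold change is the size of the change divided by the square root of its F statistic, used as the standard error. Tests on simulated counts preceded the fits. Alternatives were size factors as in DESeq2, DESeq2 1.42.0, no filter, the letter as a block, the compared libraries alone, limma 3.58.1 on log2(FPKM + 1) or log2(FPKM + 0.1), and leaving out each library. The members and lists were chosen with earlier results of these data known. From each list, the called gene with the largest rise and the largest fall at each stage was named, given a mean of at least 5 CPM and one direction in both pairs of equal letter, and Myog, Myod1, Ache, Colq, Utrn, Erbb3 and Etv5 always; 1 gene named by this rule is not reported here. Coordinates are RefSeq's on GRCm38.p6. Gm30940, 4930544D05Rik, Gm13778 and Gm46878, which overlap Chrna1, Chrne, Rapsn and Agrn, are listed in no table, so reads from them cannot be told apart from these genes.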

Additional observations from a re-analysis of the deposited data

Results flagged for a closer look

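Chrna1, Dok7 and Myog responded to PFI-3 unequally across stages, by a test of the difference between effects. The log2 effect on Chrna1 was 0.45 higher at DM 24h than in GM and 0.60 higher at DM 48h than at DM 24h, and the latter held in all 20 alternatives. The effect on Dok7 was 0.74 higher at DM 48h than at DM 24h. The effect on Myog was -2.31 at DM 24h relative to GM (adjusted p = 0.0175, and 0.000439 to 0.194 over the alternatives), which rests on 2 to 12 counts a library in GM, and 0.44 higher at DM 48h than at DM 24h (0.0185, and 1.13e-11 to 0.456). Nos1 and Nid2 were called in opposite directions at DM 24h and DM 48h, with differences of -1.84 and 0.71 between the effects, both called in all 20 alternatives. Neighbouring differences share the DM 24h libraries. Cells at each later stage had also been in PFI-3 for longer, so stage and length of exposure cannot be told apart in these differences. Of all genes, 3.37% differed between GM and DM 24h and 12.1% between DM 24h and DM 48h.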

How the results depend on the processing

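Of 52 called member results, none changed sign in 1034 values under the alternatives, 989 kept the call and 45 lost it, spread over 10 results. Of 757 values of uncalled results, 72 were called and 26 changed sign. Duplicates of 1 cell line limit the precision, and low counts limit Chrne everywhere and Chrng, Myog and Ache in GM.

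Fitting only the libraries compared called 38 genes (GM), 5603 (DM 24h) and 5644 (DM 48h) for PFI-3 minus DMSO, 5630 for DM 48h minus DM 24h with PFI-3, and 92 and 4170 for the differences of the effect between GM and DM 24h and between DM 24h and DM 48h. Members called were then 8 at DM 48h, 0 for the first difference and 7 for the second. The libraries of GM alone give a wider spread and those of DM a narrower one than all 12. Gene by gene, log2(B/A) with DMSO was set against log2(B/A) with PFI-3. The correlation of these differences over 10656 genes was 0.504, 0.029 and 0.047 for the 3 stages in turn. Nothing in the labels says what the letter marks. With the letter as a replicate block over all libraries, calls numbered 1489 (GM), 3040 (DM 24h) and 3452 (DM 48h), against 1456, 2966 and 3438 without it. The block within only the libraries compared gave 922, 5715 and 6077, 6047 for DM 48h minus DM 24h with PFI-3, 803 and 4344 for the 2 differences, and 8 members at DM 48h and 7 for the second difference.

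Leaving out each library in turn called 1020 to 2742 genes and 3 to 7 members for PFI-3 minus DMSO in GM, for DM 24h 1323 to 3948 and 4 to 6, and for DM 48h 1961 to 4323 and 2 to 7. It called 6252 to 7948 genes and 8 to 9 members for DM 24h minus GM with DMSO, 4502 to 6725 and 6 to 8 for DM 48h minus DM 24h with DMSO, 6228 to 8046 and 8 to 9 with PFI-3 in the first interval, and 1956 to 4328 and 7 to 8 in the second. For the 2 differences it called 89 to 1002 genes and 0 to 2 members, and 794 to 2421 and 2 to 5, and for the average 2276 to 3222 and 5 to 6.

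The split of genes called higher and lower moved with limma on FPKM: for PFI-3 minus DMSO in GM 1057 and 347 (edgeR on counts 685 and 771), for DM 24h 1863 and 1143 (1533 and 1433), for DM 48h 2554 and 1356 (1682 and 1756), 2485 and 928 on average (1409 and 1617), and 196 and 399 for the first difference (223 and 200). DESeq2 called 1511 and 1082 for DM 48h minus DM 24h with PFI-3 (1649 and 1780). With limma, Chrng lost its call at DM 24h (pseudocount 0.1, 0.147) and at DM 48h (0.0802 and 0.495), and Dok7 at DM 48h (0.123 and 0.182). Lrp4 (0.15 and 0.176) and Chrnd (0.121) lost theirs for DM 48h minus DM 24h with DMSO, as did Musk (0.0558 and 0.0843) and Chrnd (0.0638) with PFI-3, and Chrnd on average (0.114 and 0.215).

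Signs turned only for values that were not called with all 12 libraries in edgeR. With limma at pseudocounts 1 and 0.1, Musk was 0.04 and 0.05 in GM and again on average, Colq 0.01 and 0.04 at DM 24h, and the first difference -0.38 and -0.37 for Chrnd and -0.33 for Chrng at 1. The second difference for Agrn was 0.01 with size factors or DESeq2 and 0.02 with limma. Leaving out 1 library gave ranges that crossed 0. In GM they were -1.99 to 0.82 for Chrnd, -0.34 to 0.24 for Musk, -0.14 to 0.21 for Utrn, -0.52 to 2.15 for Erbb3 and -0.05 to 0.21 for Etv5. At DM 24h they were -0.01 to 0.14 for Musk, -0.05 to 0.13 for Rapsn, -0.004 to 0.10 for Lrp4 and -0.41 to 0.47 for Colq, and at DM 48h -0.01 to 0.22 for Colq. Agrn ran from -0.03 to 0.14 for DM 48h minus DM 24h with PFI-3. The first difference ran from -1.76 to 1.05 for Chrnd, -0.26 to 1.05 for Chrng, -0.18 to 0.40 for Musk and -0.30 to 0.21 for Agrn, the second from -0.10 to 0.07 for Agrn, and the average from -0.08 to 0.04 for Musk.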
